A study of Homo sapiens with 14 samples.

Results

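The long noncoding RNAs named as intergenic (LINC followed by a number) or as antisense to a neighbouring gene (ending in -AS1) were followed through the polysome gradient of MDA-MB-231 cells with and without DAP5. Of 58434 symbols in the count data, 2601 carried such a name and 1425 of these had at least 1 read. The 169 described here, 61 LINC and 108 -AS1 symbols, had at least 50 counts in each of the 4 total mRNA libraries, and EPB41L4A-AS1 was left out by the choice. Closest above this limit were PRKG1-AS1 and TMEM147-AS1, each with a lowest total count of 50, and closest below it were LINC02104 and UBL7-AS1 with 49 and SDCBP2-AS1 with 48. The total mRNA counts chose the RNAs, so their total mRNA levels are given without a test.

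MDA-MB-231 is an established human line of triple-negative, mesenchymal-like breast cancer, and the study's methods name a metastatic variant of it. Its cells carried a stable doxycycline-inducible construct, either a non-silencing shRNA (MB-231-shNSi, 2 cultures) or an shRNA against DAP5 (MB-231-shDAP5, 2 cultures), and all cultures received doxycycline at 1 µg/ml for 6 days. DAP5, the product of EIF4G2, is a member of the eIF4G family of translation initiation factors that lacks the binding site for the cap-binding protein eIF4E. Total mRNA, light polysome (poorly translated) mRNA and heavy polysome (well-translated) mRNA were sequenced from each culture, together with a moderate polysome pool of each shNSi culture only, from lysates made in a buffer meant for cytoplasm.

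On a sucrose gradient an mRNA sediments with the number of ribosomes it carries, so that long, well-initiated reading frames lie in heavy polysomes and short or rarely initiated ones in light polysomes. A long noncoding RNA has no long conserved reading frame, although many are cytoplasmic, and some carry a short frame that ribosomes read. Some RNAs first given a LINC or -AS1 name are now annotated as messengers of small proteins, and antisense RNAs often start at or overlap a coding gene on the other strand.

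Of the 169 RNAs, 164 were matched to GENCODE v29, 151 by symbol and 13 through a RefSeq synonym. The annotation named 67 of them antisense, 56 lincRNA, 26 processed transcript and 6 protein-coding. Their merged exons covered 542 to 27605 bases with a median of 3431. For 107 of the 164, exons overlapped exons of a gene on the opposite strand, over a median of 4.25% of the exonic bases, and for 7 over more than 50%. The name of the deposited count data holds the words featurecounts and rev, which may mark counting on the reverse strand by featureCounts, but a strand setting is not stated. If strand was not used, reads from such an RNA and from its neighbour cannot be told apart.

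The 6 with an annotated coding sequence were LINC00094 (now BRD3OS), LINC00116 (MTLN), LINC00493 (SMIM26), LINC00998 (SMIM30), MMP24-AS1 (MMP24OS) and TOPORS-AS1 (SMIM27). Of these, 3 coding sequences are shown, since they are the frames that ribosomes on these RNAs can read, with the start and stop codons in capitals. They were read 5′ to 3′ on the coding strand from the GENCODE v29 transcripts (GRCh38, whereas the counts were made on hg19). LINC00116 lies on the minus strand of chromosome 2 from 110211529 to 110245420 and encodes mitoregulin, a mitochondrial membrane protein, and its shortest annotated frame of 56 codons is shown. LINC00493, on the plus strand of chromosome 20 from 18567347 to 18569563, has 95 codons, and LINC00998, on the minus strand of chromosome 7 from 113116718 to 113118613, encodes a small membrane protein of 59 codons.
LINC00116 (MTLN): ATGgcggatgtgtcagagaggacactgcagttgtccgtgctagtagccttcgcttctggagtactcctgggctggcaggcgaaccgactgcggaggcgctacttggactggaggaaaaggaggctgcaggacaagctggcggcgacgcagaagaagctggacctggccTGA
LINC00493 (SMIM26): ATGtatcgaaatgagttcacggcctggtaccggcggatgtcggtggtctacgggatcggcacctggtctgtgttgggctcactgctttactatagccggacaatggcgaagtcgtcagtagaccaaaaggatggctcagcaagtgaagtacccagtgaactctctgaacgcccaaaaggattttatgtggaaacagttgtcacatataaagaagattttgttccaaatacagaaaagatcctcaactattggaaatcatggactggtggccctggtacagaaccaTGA
LINC00998 (SMIM30): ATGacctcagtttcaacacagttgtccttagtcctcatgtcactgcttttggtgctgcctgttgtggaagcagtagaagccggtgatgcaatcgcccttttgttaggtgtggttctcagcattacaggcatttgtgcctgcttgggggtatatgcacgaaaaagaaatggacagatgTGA

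The 14 libraries held 25899838 to 30795910 counts each. EIF4G2 was at 1391 and 1358 CPM in shNSi total mRNA and at 525 and 730.0 in shDAP5 total mRNA, a log2 change of −1.11 (SE 0.18). VIM, CD44, MSN, SPARC, LGALS1, AXL and EGFR, listed as genes that MDA-MB-231 cells express, were all present, PGR had no count, and ESR1, CDH1 and FOXA1 stayed under 1 CPM in total mRNA, whereas ERBB2, EPCAM and GATA3 were at 3.68 to 67.4 CPM and KRT8 at 427 to 544 CPM. The shDAP5 light polysome libraries had a sample code that in shNSi cells marks the moderate pool, and their titles were followed, and the shDAP5 total libraries, titled total polysome, were taken as total mRNA. The labels do not say that replicates were separate cultures, although the study describes independent experiments, so that p-values measure the spread between these samples only. A permutation of 2 against 2 samples cannot give a two-sided p below 0.333, and the tests borrow the spread of all genes.

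The 169 RNAs gathered in light polysomes. They made up 0.561% and 0.305% of all counts in the shNSi light libraries, 0.184% and 0.120% in the moderate pool and 0.0920% and 0.103% in heavy polysomes, against 0.300% and 0.304% in total mRNA. In shDAP5 cells the share was 0.602% and 0.648% in light polysomes, 0.195% and 0.160% in heavy polysomes and 0.369% and 0.329% in total mRNA. LRRC75A-AS1 alone held 13.6% to 35.8% of these counts. Without it the share in light polysomes was 0.429% and 0.221% in shNSi and 0.450% and 0.433% in shDAP5 cells, beside 0.159% and 0.0923% in the shNSi moderate pool. The median level over the 169 RNAs, on the log2 CPM scale, was 3.52 and 2.59 in shNSi and 3.43 and 3.31 in shDAP5 light polysomes, so that both shDAP5 light libraries lay between the shNSi light libraries by this measure. The heavy share, with or without LRRC75A-AS1, was higher in both shDAP5 cultures than in both shNSi cultures, and the shNSi light libraries differed from each other by more than the shDAP5 light libraries did.

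Within MB-231-shNSi cells 149 of the 169 RNAs were lower in heavy than in light polysomes and 4 were higher, in the quasi-likelihood test of edgeR with a threshold of 0.05 on p-values adjusted by Benjamini-Hochberg over 15878 genes. Of all genes tested, 31.1% were lower and 30.5% higher. With library size in place of TMM scaling, which adjusts for library composition, 42.9% of all genes were lower and 22.9% higher, and of the RNAs 157 were lower and 2 higher. The median log2 of heavy over light was −1.67 for the 169 RNAs, −0.15 for all genes and 0.16 for protein-coding genes. The other lincRNA and antisense genes of GENCODE, of which 505 were tested, had a median of −1.68. In the fits of 1 fraction alone, 494 such genes passed the count filter in light and 270 in heavy polysomes. Genes could thus enter through the fraction where they were high. For this reason their median cannot show whether they shared the depletion. LINC RNAs had a median of −1.64, with 51 of 61 lower, and -AS1 RNAs a median of −1.69, with 98 of 108 lower. In each shNSi culture the light library was the highest of the 3 polysome pools for 156 of the 169 RNAs, beside 37.9% of all genes in culture 1 and 42.5% in culture 2.

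**Figure D1:**
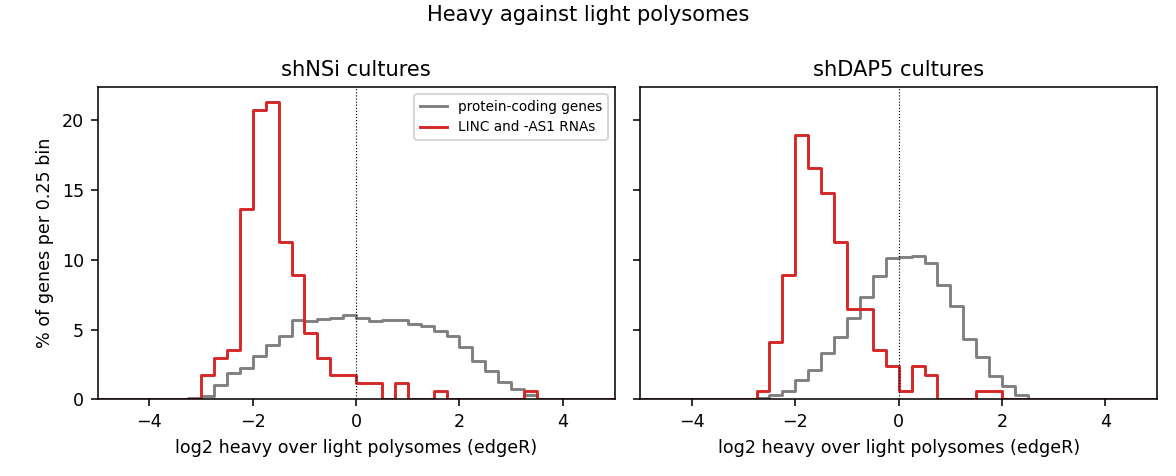
Share of genes (vertical axis, % per bin of 0.25) by log2 of heavy over light polysomes from the edgeR fit (horizontal axis), for the 169 LINC and -AS1 RNAs (red) and for protein-coding genes (grey), in shNSi cultures on the left and shDAP5 cultures on the right. The RNAs peak left of 0 in both cell lines, with medians of −1.67 and −1.46, while the coding genes are spread around 0.

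The size of this depletion differed between the shNSi cultures. The median of heavy over light was −1.96 in culture 1 and −1.06 in culture 2, and 158 of the 169 RNAs were higher in the light library of culture 1 than in that of culture 2, beside 51.3% of all genes. In heavy polysomes the medians of both cultures were 1.68 on the log2 CPM scale. Without culture 1 there were 113 RNAs past the threshold, and without culture 2 there were 149, beside 47.4% and 54.1% of all genes. With the moderate pool in place of the light library 27 RNAs passed, 25 of them lower, with a median of −0.41, beside 38.6% of all genes past the threshold.

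In MB-231-shDAP5 cells 136 of the 169 were lower in heavy than in light polysomes and 2 were higher, against 19.9% and 19.8% of all genes. With library size alone these became 140 and 2 RNAs and 26.1% and 14.9% of all genes. The median was −1.46 for the 169 RNAs and −0.03 for all genes. The cultures gave −1.39 and −1.47, closer together than the shNSi cultures. With 1 shDAP5 culture left the number past the threshold was 82 without culture 1 and 85 without culture 2, beside 12.2% and 10.7% of all genes.

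The strongest light bias in shNSi cells belonged to ZSCAN16-AS1, LINC00116, LINC00460, ATP2A1-AS1 and PITPNA-AS1. LINC00116 was at 74.4 and 52.1 CPM (library-size normalized counts after TMM scaling over the 14 libraries, culture 1 and culture 2) in light polysomes, at 15.8 and 13.9 in the moderate pool and at 8.44 and 9.71 in heavy polysomes. Its level fell from pool to pool in both cultures, without overlap between pools. The log2 of heavy over light was −2.91 (SE 0.32, adjusted p = 1.23e-06). ZSCAN16-AS1 was at 19.1 and 4.07 CPM in light and 1.45 and 1.14 CPM in heavy polysomes, a log2 of −2.99 (SE 0.42, adjusted p = 6.53e-06). Its light level differed between the cultures far more than its heavy level. LINC00460, an RNA raised in several carcinomas, was at 6.56 and 2.31 CPM in light and 0.606 and 0.616 CPM in heavy polysomes, with a log2 of −2.85 (SE 0.44, adjusted p = 1.87e-05). ATP2A1-AS1 and PITPNA-AS1 had log2 values of −2.66 and −2.61. In shDAP5 cells the lowest were ENTPD3-AS1 (−2.55), LINC00601 (−2.42), PCBP1-AS1 (−2.33), LINC00460 (−2.32) and ZSCAN16-AS1 (−2.30).

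The 4 RNAs higher in heavy than in light polysomes of shNSi cells were LINC01963, LINC02035, LINC00641 and FLG-AS1. LINC01963, whose RefSeq synonym PKI55 names a reported peptide inhibitor of protein kinase C, was at 1.86 and 1.24 CPM in light polysomes, 2.26 and 4.77 CPM in the moderate pool and 11.6 and 26.1 CPM in heavy polysomes of shNSi cells. Every heavy level lay above every moderate and light level, and the log2 of heavy over light was 3.37 (SE 0.44, adjusted p = 4.44e-06). LINC02035 was at 1.83 and 1.69 CPM in light and 4.20 and 9.24 CPM in heavy polysomes, a log2 of 1.71 (SE 0.39, adjusted p = 0.000783). LINC00641 reached 0.95 (SE 0.35, adjusted p = 0.0231) and FLG-AS1 0.88 (SE 0.32, adjusted p = 0.0227), smaller differences that passed the threshold. In shDAP5 cells LINC02035 (1.98 (SE 0.41, adjusted p = 0.00112)) and LINC01963 (1.73 (SE 0.44, adjusted p = 0.00464)) were higher in heavy polysomes, whereas LINC00641 (0.38 (SE 0.34, adjusted p = 0.386)) and FLG-AS1 (0.31 (SE 0.32, adjusted p = 0.456)) did not pass. All 4 are annotated without a coding sequence. The starts of their longest ATG-initiated frames on any annotated transcript are printed to show what a ribosome on these RNAs could read, with the ATG in capitals, from GENCODE v29 on GRCh38, where the genes lie on chromosome 2 from 216217045 to 216220192, chromosome 3 from 122886941 to 122892416, chromosome 14 from 21200079 to 21206900 and chromosome 1 from 152168125 to 152445456.
LINC01963, plus strand, 98 codons: ttctaattaATGgtccaggca
LINC02035, plus strand, 123 codons: ggtctcactATGttcccccaa
LINC00641, minus strand, 104 codons: agaagccccATGcatgttctc
FLG-AS1, plus strand, 126 codons: ctctcctgtATGagatatgtg
Frames of this length were usual among the RNAs, with a median of 103 codons over 164. Whether any of them is read was not tested.

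The most abundant of the RNAs were also biased to light polysomes. LRRC75A-AS1, a host of small nucleolar RNAs, stood at 749.6 and 1071 CPM in shNSi and 1037 and 977 CPM in shDAP5 total mRNA, far above all others, with an RPKM (CPM per kilobase of exons) of 255 over the 4 total libraries. It was at 1156 and 818 CPM in light and 183 and 322 CPM in heavy polysomes of shNSi cells, a log2 of −2.13 (SE 0.42, adjusted p = 0.000221). Across the 164 RNAs with a length the RPKM ran from 0.179 to 255 with a median of 1.85. By this measure SLCO4A1-AS1 (61.9), FGD5-AS1 (30.8), MMP24-AS1 (13.7), THAP9-AS1 (11.4), LINC01578 (11), OIP5-AS1 (6.45) and PAX8-AS1 (5.09) stood at lower levels, and these 8 RNAs had the highest mean CPM. OIP5-AS1, a cytoplasmic RNA known for binding a microRNA, was at 118 and 61.7 CPM in light and 44.8 and 46 CPM in heavy polysomes of shNSi cells, and at 141 and 162 and 54.2 and 28 CPM in shDAP5 cells. Its log2 of heavy over light was −1.04 (SE 0.33, adjusted p = 0.00986) and −1.98 (SE 0.34, adjusted p = 0.000334), and FGD5-AS1 gave −0.91 (SE 0.33, adjusted p = 0.0234) and −1.55 (SE 0.34, adjusted p = 0.00147), in the order shNSi, shDAP5. With the moderate pool as the lower reference both reversed in shNSi cells, to 0.15 for FGD5-AS1 and 0.15 for OIP5-AS1. LINC01578, transcribed beside the chromatin remodeller gene CHD2, gave −1.57 (SE 0.33, adjusted p = 0.00039) in shNSi and −2.17 (SE 0.33, adjusted p = 0.00026) in shDAP5 cells.

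**Figure D2:**
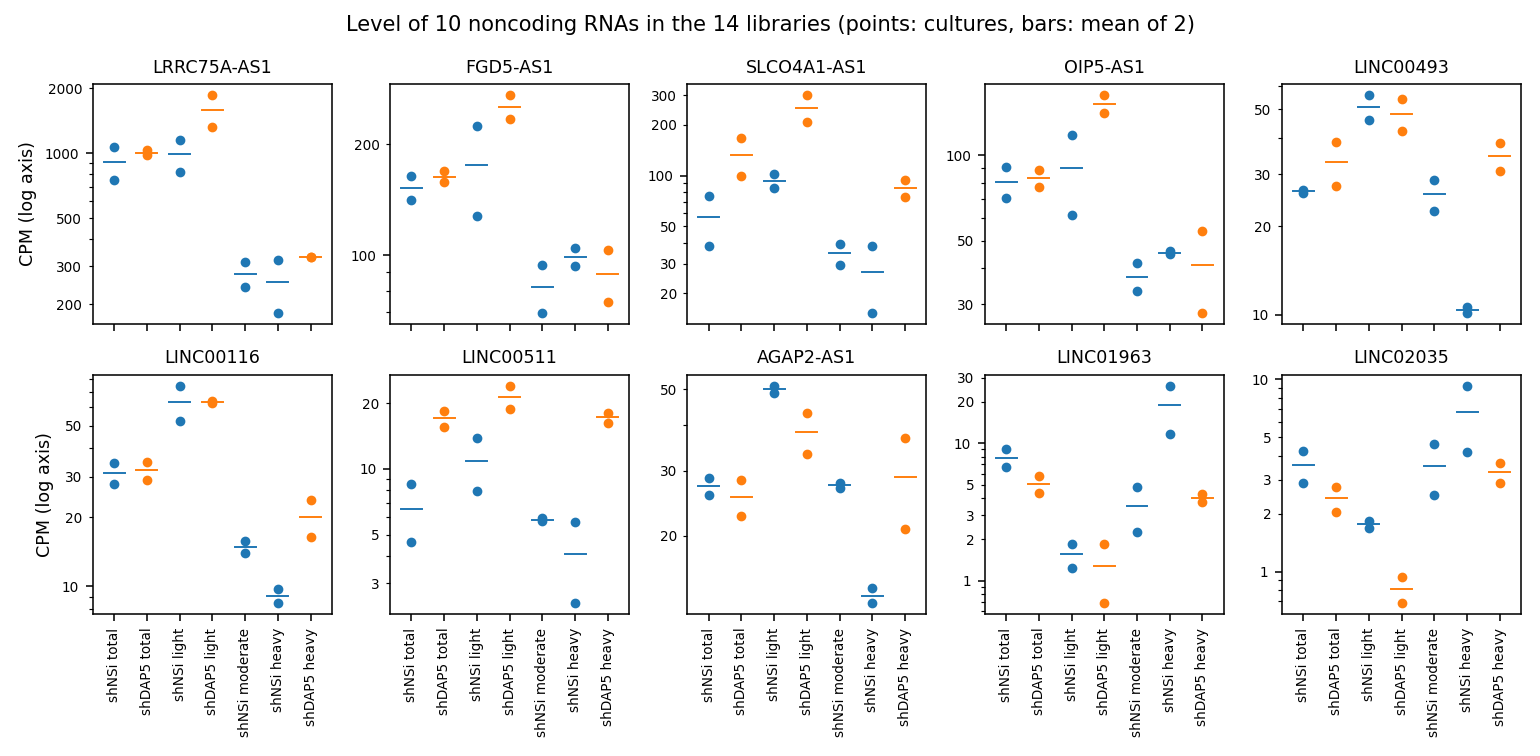
Level in CPM (log axis, a scale of its own in each panel) of 10 RNAs in the 14 libraries, grouped by fraction, with shNSi in blue and shDAP5 in orange; points are cultures and bars the mean of 2. LINC00493 and AGAP2-AS1 rise from shNSi heavy to shDAP5 heavy polysomes while their moderate pool lies near the shDAP5 heavy level, and LINC01963 is highest in shNSi heavy polysomes.

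Antisense RNAs differed in fraction from the genes they are named after. Of 108 -AS1 RNAs, 107 had their partner symbol in the data and 94 had a partner that could be tested. In shNSi cells the antisense RNA had a lower log2 of heavy over light than its partner in 90 of 94 pairs and in shDAP5 cells in 91 of 94. The medians were −1.71 and 0.15 in shNSi cells and −1.48 and 0.27 in shDAP5 cells, for antisense RNAs and partners. Among the partners 36 were higher and 17 lower in heavy than in light polysomes of shNSi cells, which is 38.3% and 18.1% beside 36.3% and 26.3% of protein-coding genes and 30.5% and 31.1% of all genes. RBM26-AS1 had a log2 of −2.03, whereas RBM26, which encodes an RNA-binding protein, had 1.78 (adjusted p = 3.11e-05). PITPNA-AS1, overlapped over 69.9% of its exonic bases, had −2.61, whereas PITPNA, a phosphatidylinositol transfer protein gene, had 0.11 (adjusted p = 0.761). The contrast was small for SLCO4A1-AS1, at −2.07 beside −1.61 for the transporter gene SLCO4A1, and for PAX8-AS1, at −1.68 beside −1.69 for PAX8. The partners were not matched to the antisense RNAs in length or level.

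**Figure D3:**
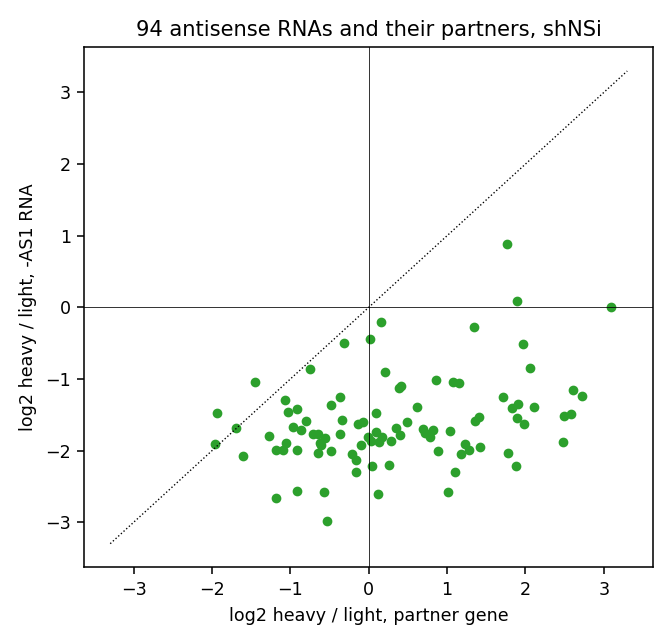
Log2 of heavy over light polysomes in shNSi cells for 94 -AS1 RNAs (vertical axis) against the gene each is named after (horizontal axis), from the edgeR fit; each point is a pair and the dotted line marks equal values. In 90 of the 94 pairs the point lies below the line; PAX8-AS1 and PAX8 lie close to it, at −1.68 and −1.69.

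With DAP5 silenced, 38 of the 169 RNAs rose in heavy polysomes and 1 fell. Of the 14270 genes tested by edgeR's quasi-likelihood test, 14.2% were higher and 16.7% lower, so that 22.5% of the RNAs rose beside a background of 14.2% and 0.592% fell beside 16.7%. This background was not matched to the RNAs in length. Short genes rose more often, and of all genes with up to 2458 exonic bases 37.6% were higher. In the length ranges of the middle 54 and the longest 55 RNAs, 16.8% and 5.71% of all genes were higher. Of the shortest 55, middle 54 and longest 55 RNAs, 20, 10 and 7 rose. The median log2 change was 0.65 for the 169 RNAs, 0.09 for all genes and 0.02 for protein-coding genes, and it was 0.73 for the 270 other lincRNA and antisense genes tested. The LINC RNAs gave 19 higher of 61 and the -AS1 RNAs 19 of 108. In 91 of the 169 both shDAP5 cultures lay above both shNSi cultures, and in 13 both lay below, against 29% and 37.1% of all genes. Relative to the median of all genes the median of the 169 was higher by 0.56, and it was higher by 0.55 with library size alone, which moved the median of all genes to 0.34. On the quantile-normalized log2(CPM + 1) scale of the limma fit it was higher by 0.28, and 29 RNAs rose and 2 fell, beside 12.9% and 13.7% of all genes.

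The call depended on which control pool and which cultures were used. With the sum of the shNSi heavy and moderate libraries as control, the background fell to 2.77% of genes and 2 of the 169 were called, LINC00511 and SLCO4A1-AS1, with a median over the 169 of 0.32. With the moderate pool in place of the heavy library none was called, 0.344% of all genes were, and the median was 0.11. In 28 of the 169 RNAs both shDAP5 heavy levels lay above all 4 shNSi heavy and moderate levels, and in 4 both lay below, against 6.73% and 7.18% of genes. Without shNSi culture 1 there were 21 called beside 23.7% of all genes, without shNSi culture 2 there were 17 beside 14.1%, without shDAP5 culture 1 there were 14 beside 19.9% and without shDAP5 culture 2 none, when 2 of all genes were called. The TMM factor of the shNSi heavy libraries was 0.763 and 0.702, against 1.04 and 0.932 for shDAP5 heavy. Without these factors 43 of the RNAs rose and 1 fell, among them all 39 called with them, while 17.5% of all genes were higher and 7.98% lower.

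LINC00511, an RNA studied in breast cancer, rose most. It was at 2.43 and 5.68 CPM in shNSi and 18.1 and 16.3 CPM in shDAP5 heavy polysomes, a log2 change of 2.27 (SE 0.38, adjusted p = 1.21e-06). The shDAP5 levels lay above the moderate pool as well, at 5.76 and 5.96 CPM. Its total mRNA was also higher, at 4.61 and 8.50 CPM in shNSi and 18.4 and 15.6 CPM in shDAP5 cells, a log2 change of 1.41 (SE 0.29). SLCO4A1-AS1 was at 15.3 and 38 CPM in shNSi and 94.3 and 74.3 CPM in shDAP5 heavy polysomes, a log2 change of 1.85 (SE 0.34, adjusted p = 1.13e-05). Its total mRNA differed by 1.26 (SE 0.40), and the gene SLCO4A1 on the other strand rose in heavy polysomes by 1.61 (adjusted p = 9.84e-05), so that the pair moved alike. With the summed control pool the log2 changes were 1.84 (adjusted p = 0.000979) for LINC00511 and 1.52 (adjusted p = 0.00272) for SLCO4A1-AS1.

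The other large rises were of RNAs at low levels, apart from LINC00493. LINC00989 went from 0.373 and 1.37 to 3.81 and 2.85 CPM, a log2 change of 2.12 (SE 0.51, adjusted p = 0.000555), RPARP-AS1 from 0.746 and 1.09 to 3.46 and 2.51 CPM, a change of 1.88 (SE 0.50, adjusted p = 0.00206), and FOXD3-AS1 from 1.31 and 1.75 to 4.09 and 4.44 CPM, a change of 1.66 (SE 0.46, adjusted p = 0.00293). In each of them the groups did not overlap. LINC00473, which cAMP signalling through CREB induces, was named after its values were seen, as the RNA with the largest total change. It was at 2.75 and 2.06 CPM in shNSi and 5.63 and 7.19 CPM in shDAP5 total mRNA, a log2 change of 1.43 (SE 0.32), and rose in heavy polysomes by 1.54 (SE 0.45, adjusted p = 0.00459). Over the 169 RNAs the log2 change in total mRNA had a median of 0.10, beside 0.01 for all genes, and ran from −0.79 for AFAP1-AS1 to 1.43, with 4 RNAs above 1 and none below −1. The requirement of 50 counts in every total library leaves out RNAs that were low in 1 of the cell lines, which bounds these values. In bulk libraries, fewer cells with an RNA and less of it per cell cannot be told apart.

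**Figure D4:**
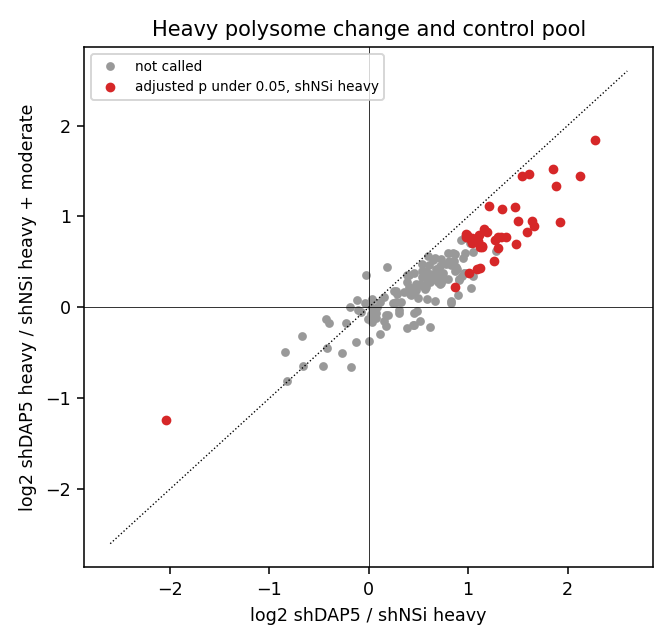
Log2 change from shNSi to shDAP5 heavy polysomes of the 169 RNAs, with the shNSi heavy library as control (horizontal axis) and with the sum of the shNSi heavy and moderate libraries as control (vertical axis), from edgeR; red points passed an adjusted p of 0.05 with the heavy library as control, and the dotted line marks equal values. The red points on the right lie below the line but above 0, with a median of 1.27 across and 0.79 up.

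All 6 RNAs with an annotated coding sequence rose in heavy polysomes, with log2 changes from 0.98 to 1.92 and a median of 1.31, beside 32 of the other 163 RNAs and 14.2% of all genes. LINC00116, LINC00493 and LINC00998 were short, with 2051, 1098 and 1896 exonic bases, and LINC00094 and MMP24-AS1 long, with 5994 and 5511. Of all genes in these short and long ranges, 37.6% and 5.71% were higher. All 6 were lower in heavy than in light polysomes of shNSi cells, with a median of −2.37, as were 143 of the other 163 RNAs and 31.1% of all genes. LINC00493, whose frame of 95 codons is printed above, was at 10.2 and 10.7 CPM in shNSi heavy polysomes, 28.7 and 22.6 CPM in the moderate pool and 30.8 and 38.4 CPM in shDAP5 heavy polysomes. Its light levels of 55.7 and 45.9 CPM in shNSi and 54.2 and 42.1 CPM in shDAP5 cells overlapped, and its moderate levels lay below the shDAP5 heavy levels. The heavy change was 1.92 (SE 0.35, adjusted p = 5.82e-06) with the heavy library as control and 0.94 (adjusted p = 0.162) with the summed pool. LINC00116 rose from 8.44 and 9.71 to 16.4 and 23.6 CPM, a log2 change of 1.33 (SE 0.35, adjusted p = 0.00201). LINC00998 rose from 15.9 and 13 to 35.2 and 27.3 CPM, a change of 1.30 (SE 0.34, adjusted p = 0.00184). MMP24-AS1 changed by 1.19 (SE 0.33, adjusted p = 0.00321), TOPORS-AS1 by 1.61 (SE 0.53, adjusted p = 0.0141) and LINC00094 by 0.98 (SE 0.35, adjusted p = 0.0215). TOPORS-AS1 rested on low counts, 19 and 11 in shNSi and 47 and 56 in shDAP5 heavy polysomes. LINC00467, which GENCODE v29 lists as noncoding and for which a mitochondrial microprotein named ASAP has been described, rose by 0.99 (SE 0.38, adjusted p = 0.0346). None of these 7 was called with the summed pool.

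LINC01963 was the single RNA that fell in heavy polysomes. It was at 11.6 and 26.1 CPM in shNSi and 4.27 and 3.74 CPM in shDAP5 heavy polysomes, without overlap, and the log2 change was −2.04 (SE 0.38, adjusted p = 1.02e-05). Its total mRNA was at 6.70 and 9.0 CPM in shNSi and 4.34 and 5.77 CPM in shDAP5 cells, a change of −0.61 (SE 0.29). The moderate pool stood at 2.26 and 4.77 CPM, on both sides of the shDAP5 heavy levels, and with this pool as control the change was 0.21 (adjusted p = 1). With the summed pool it was −1.24 (adjusted p = 0.0858), so that the fall was not called in either case.

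Translation efficiency, the log2 of heavy polysome over total mRNA of the same culture, had a median of −1.03 and −0.88 in the shNSi and −0.56 and −0.57 in the shDAP5 cultures, beside 0.16, 0.09, 0.10 and −0.02 for all genes. It was negative in both cultures for 150 of the 169 RNAs in shNSi and for 125 in shDAP5 cells, beside 36.9% and 25.3% of all genes. Its denominators are the counts that chose the RNAs, so that translation efficiency in heavy and in light polysomes is given as a description of the RNAs and not as an independent test, and it shares the heavy libraries with the comparison above. In edgeR's quasi-likelihood test of the interaction over 15374 genes, 10 RNAs lay past the threshold as higher and 1 as lower, against 4.85% and 8.23% of all genes. The share of 5.92% on the higher side was close to the background. The limma fit called 1 RNA, as higher, and 1.57% of all genes higher and 1.09% lower. The median change was 0.52, beside 0.09 for all genes. The highest changes among those past the threshold were 1.56 (SE 0.36) for LINC00493, 1.39 (SE 0.38) for PITPNA-AS1, 1.32 (SE 0.45) for RBM26-AS1, 1.27 (SE 0.37) for AGAP2-AS1, 1.27 (SE 0.43) for FOXD3-AS1 and 1.23 (SE 0.36) for LINC00116, and LINC01963 had −1.35 (SE 0.38). PITPNA-AS1 was at 3.59 and 2.18 CPM in shNSi and 7.56 and 8.33 CPM in shDAP5 heavy polysomes and at 9.66 and 6.40 and 11 and 8.05 CPM in total mRNA. Its heavy levels separated the cell lines and its total levels overlapped. RBM26, the partner of RBM26-AS1, had a change of −1.005 (adjusted p = 0.0485). None of the 169 and no other gene passed with library size alone, without a term for each culture or with the summed pool. None of the 169 passed without shNSi culture 1, shNSi culture 2 or shDAP5 culture 2, beside 3.59%, 0.025% and 0.27% of all genes, and 36 passed without shDAP5 culture 1, beside 28.5% of all genes.

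In light polysomes no RNA and no other gene passed the adjusted threshold between shDAP5 and shNSi by edgeR's quasi-likelihood test, where 0% of 15529 genes were called and 15 of the 169 RNAs had an unadjusted p under 0.05, beside 8.56% of all genes. DESeq2 called 2 RNAs, both higher, beside 0.187% of all genes higher and 0.489% lower, and limma called none. The median log2 change was 0.28, beside −0.01 for all genes. Translation efficiency in light polysomes likewise gave 0% of 15967 genes, 11 RNAs with an unadjusted p under 0.05, beside 5.22% of all genes, and a median of 0.25, and DESeq2 and limma called none. Both comparisons turned on the shNSi light libraries, whose medians are given above. Without shNSi culture 1 the median over the 169 was 0.86 in light polysomes and 0.68 in light translation efficiency. Without shNSi culture 2 these medians were −0.09 and −0.13. With the shNSi moderate pool, whose code the shDAP5 light libraries carry, in place of the shNSi light libraries, 100 RNAs were called in light polysomes, 99 of them higher, beside 25.5% of all genes. In light translation efficiency this pool gave 128, of which 126 were higher, beside 27.5% of all genes, and the medians over the 169 were 1.55 in both comparisons.

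The change in heavy over light between the cell lines uses no total mRNA library but shares the polysome libraries with the comparisons above. Of 15878 genes, 1.54% were higher and 5.21% lower by edgeR's quasi-likelihood test, and of the 169 RNAs LINC00493 and AGAP2-AS1 were higher and none was lower. The median was 0.21, beside 0.05 for all genes. It was −0.36 without shNSi culture 1, 0.67 without shNSi culture 2 and 0.03 with the summed pool, so that its sign turned with 1 culture. With library size alone 7 RNAs were higher, beside 6.27% of all genes higher and 4.04% lower. AGAP2-AS1, an RNA antisense to a GTPase-activating protein gene, was at 13.1 and 14.4 CPM in heavy and 51.1 and 48.9 CPM in light polysomes of shNSi cells, and at 20.9 and 37 CPM and 43 and 33.3 CPM in those of shDAP5 cells. Both its heavy and its light levels separated the cell lines, in opposite directions. The change in heavy over light was 1.52 (SE 0.44, adjusted p = 0.0423), and 1.90 (SE 0.41, adjusted p = 0.0179) for LINC00493. Of the exonic bases of AGAP2-AS1, 57.7% are overlapped by exons on the opposite strand, with AGAP2 as the gene of largest overlap. AGAP2 itself gave a change of −0.92 (adjusted p = 0.256) from a much lower level. Within shNSi cells heavy over light was −2.41 for LINC00493 and −1.99 for AGAP2-AS1, and within shDAP5 cells −0.50 (adjusted p = 0.168) and −0.47 (adjusted p = 0.23). Neither was called with limma, with the summed pool (1.04 and 0.87), with the moderate pool in place of the shNSi heavy (0.51 and 0.42) or light library (0.91 and 0.65), or without shDAP5 culture 2, with values in the order LINC00493, AGAP2-AS1. With the moderate pool in place of light the median over the 169 turned to −1.005 and 70 RNAs were called, 68 of them lower, beside 23.9% of all genes. Without shNSi culture 1 there were 13 called, 7 of them lower, beside 17.8% of all genes.

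**Figure D5:**
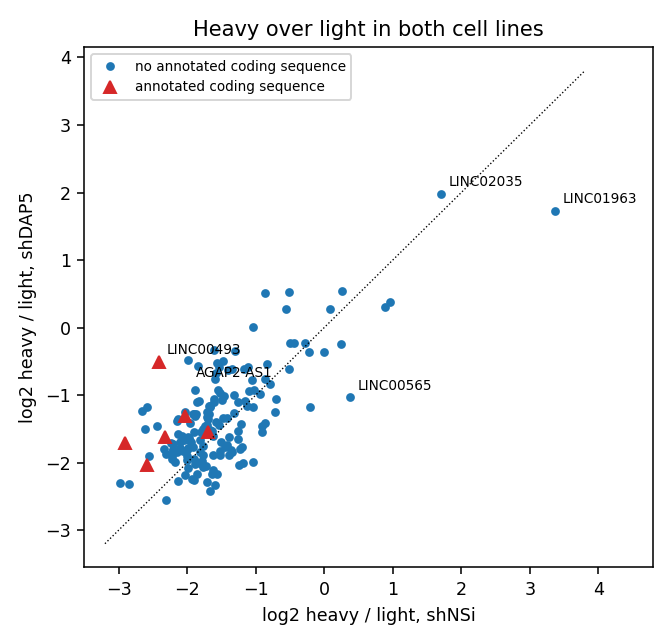
Log2 of heavy over light polysomes in shDAP5 cells (vertical axis) against shNSi cells (horizontal axis) for the 169 RNAs, from 1 edgeR fit; triangles have an annotated coding sequence and the dotted line marks equal values. LINC00493 lies farthest above the line, from −2.41 to −0.50, and LINC01963 far below it, from 3.37 to 1.73.

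Length moved with these values. Exonic length and heavy over light in shNSi cells had a Spearman correlation of 0.39 across the 164 RNAs and 0.45 across 14243 genes, which share libraries and are not replicates. Length and the heavy polysome change gave −0.21 across the 164 and −0.44 across 13305 genes. Among the shortest 55 RNAs, of up to 2458 bases, 20 rose in heavy polysomes, among the middle 54 there were 10, and among the longest 55, from 4773 bases, 7. Of all genes in these length ranges 37.6%, 16.8% and 5.71% rose. The median changes were 0.74, 0.66 and 0.43 for the RNAs and 0.79, 0.26 and −0.27 for all genes, so that the short RNAs stood close to other short genes and the longer RNAs above other long genes. Heavy over light in shNSi cells had medians of −1.90, −1.54 and −1.51 for the RNAs and −1.41, −0.31 and 0.61 for all genes. LINC00493 (1098 bases), PITPNA-AS1 (542) and FOXD3-AS1 (1208) were among the short ones, whereas LINC00511, with 27605 bases, was the longest of all.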

How the data were processed

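The authors deposited whole-number read counts per gene symbol for 14 libraries, without normalization. The submitters' processing notes name STAR 2.6.0a, limma and the build hg19, and the name of the count data points to featureCounts with a mark, rev, that may stand for the reverse strand. The annotation and strand setting of the counting are not given in the sources used here. Symbols were matched to GENCODE v29 (GRCh38) for type, length, overlap and sequence. The 5 RNAs without a match (DNAJC9-AS1, LINC00941, LINC00969, MAFG-AS1 and LINC00473) have no length or overlap here. The RNAs and gene lists were chosen with earlier results of these data known.

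Counts were analysed in R 4.3.3 with edgeR 4.0.16 (filterByExpr, TMM, quasi-likelihood test with robust estimation). Each fraction was fitted alone, and translation efficiency and heavy over light were fitted with a term for each culture and an interaction of fraction and shRNA, with heavy over light of both cell lines in 1 fit. P-values were adjusted by Benjamini-Hochberg over all genes tested, and the threshold was 0.05. All 169 RNAs passed the filter in every comparison. CPM were scaled by TMM over the 14 libraries, and RPKM divide them by exonic length. The edgeR fits of heavy polysome change, heavy translation efficiency change and heavy over light change were tested on simulated counts. The simulation held no culture effect and no shift in library composition between the cell lines.

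The RNAs named are the 8 with the highest mean total CPM, the 6 lowest and 6 highest called changes in heavy polysomes and heavy translation efficiency with both cultures of 1 line beyond both of the other, the 5 lowest and 5 highest called values of heavy over light, all RNAs called in the remaining comparisons, members of a list of RNAs with small proteins, those nearest the count minimum, and partner genes of -AS1 RNAs. Other annotated coding members, LINC00473 and AFAP1-AS1 were named after their values were seen, and 1 RNA that the rule names is not reported here.

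Alternatives were DESeq2 1.42.0, library size without TMM, limma 3.58.1 after quantile normalization, which the study's methods name, here on log2(CPM + 1), no low-count filter, at least 10 counts in every library, at least 100 counts in each total library, each culture left out, the replicate number as a block, no culture term, 1 fit of 14 libraries, and the shNSi moderate pool summed with or in place of the heavy or light library. Chosen after seeing the data were crossed replicate numbers and a block beside the culture terms. The replicate numbers did not pair the samples: deviations of same-numbered cultures from their group means correlated across 15374 genes at −0.10 in total, 0.04 in heavy and 0.02 in light libraries, and at −0.18 for heavy over total, −0.03 for light over total and −0.17 for heavy over light.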

Additional observations from a re-analysis of the deposited data

Results flagged for a closer look

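For 2 of the 169 RNAs the effect of fraction differed between the cell lines by the interaction test of edgeR, both as higher in shDAP5 cells, which is 1.18% of the RNAs beside 1.54% of all genes higher and 5.21% lower, so that the count did not exceed the background. For LINC00493 the log2 of heavy over light polysomes was higher in shDAP5 than in shNSi cells by 1.903 (adjusted p = 0.0179), with −2.45 and −2.10 in the shNSi and −0.81 and −0.13 in the shDAP5 cultures. For AGAP2-AS1 it was higher by 1.516 (adjusted p = 0.0423), with −1.96 and −1.76 in the shNSi and −1.04 and 0.15 in the shDAP5 cultures. Over 16 alternatives each RNA stayed past the threshold in 11. The adjusted p ranged from 0.00142 to 0.999 for LINC00493 and from 0.00709 to 0.999 for AGAP2-AS1, and with the summed control pool it was 0.615 and 0.718.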

How the results depend on the processing

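Calls of heavy against light kept their direction under other tools and filters, and every count of calls between the cell lines moved with the control pool or the cultures. The counts for heavy and light translation efficiency are a description and not an independent test, since their total mRNA counts chose the RNAs. Counts are of the 169 RNAs past the adjusted threshold, with the share of all genes past it in the same fit in parentheses, except for the 104 RNAs with at least 100 counts in each total library, which were read from the same fit as the 169, and a fit without 1 culture leaves a lone sample that is assumed to vary like the others. Heavy polysome change, 39 called (30.9%), gave 25 (15.2%) with no filter on low counts, 17 (23.7%) with all 14 libraries in 1 fit, 2 (2.77%) with the summed pool, 0 (0.344%) with the moderate pool, 41 (33%) with the replicate block, 30 (27.2%) with it crossed, and 0 to 21 (0.0134% to 23.7%) without 1 culture. Light polysome change, 0 called (0%), gave 2 with DESeq2 (0.676%), no filter (0.899%), the replicate block (0.837%) and its crossed form (0.638%), 4 (0.7%) with light and moderate summed, 100 (25.5%) with the moderate pool, and 0 to 101 (0.0125% to 28.9%) without 1 culture. Heavy translation efficiency change, 11 called (13.1%), gave 6 with DESeq2 (13.2%) and with no filter (6.91%), 19 (19.1%) with at least 10 counts in every library, 1 (2.65%) with limma, 0 (0%) with library size, the replicate block in place of culture terms, no culture term, the summed pool and the moderate pool, 4 (4.48%) with the block beside culture terms, 29 (26.9%) with that block crossed, and 0 to 36 (0.025% to 28.5%) without 1 culture. Light translation efficiency change, 0 called (0%), gave 17 (2.86%) with light and moderate summed, 128 (27.5%) with the moderate pool, 0 (0%) with the replicate block, and 0 to 65 (0% to 12.3%) without 1 culture. The shNSi heavy against light count of 153 (61.6%) fell to 27 (38.6%) with the moderate pool in place of light, was 98 of the 104, and was 113 to 152 (47.4% to 56.1%) without 1 culture. The shDAP5 count of 138 (39.7%) was 86 of those 104 and 82 to 141 (10.7% to 46.6%) without 1 culture. Heavy over light change, 2 called (6.75%), gave 7 (10.3%) with library size, 0 (0%) with limma, the summed pool and the moderate pool in place of heavy, 11 (15.6%) with light and moderate summed, 70 (23.9%) with moderate in place of light, 5 (14.1%) with the crossed block beside culture terms, 2 (7.03%) with the replicate block, and 0 to 13 (0.0121% to 17.8%) without 1 culture. The median total mRNA change of 0.1015 ranged from 0.0156 to 0.2156 without 1 culture. Of the named values under alternatives, 786 kept their side of the threshold, 195 lost it and 4 reversed, all 4 with the moderate pool: LINC01963 in heavy polysome change (0.21) and heavy translation efficiency change (0.88), and FGD5-AS1 (0.15) and OIP5-AS1 (0.15) in shNSi heavy against light. Over all called RNAs, named or not, that pool reversed 3 of 39 in heavy polysome change, 1 of 11 in heavy translation efficiency change and 11 of 153 in shNSi heavy against light. None of the 39 RNAs called in heavy polysomes was called without each culture in turn, and 105 of 153 were in shNSi and 66 of 138 in shDAP5 heavy against light, beside 0.0453%, 62.9% and 15.7% of all genes called. Low counts limit heavy polysomes: 14 of the 169 RNAs had under 20 counts in an shNSi heavy library. The cause of these shifts was not tested.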
